A study of Homo sapiens with 8 samples.

Results

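LINC genes are human genes that carry a placeholder name, the prefix LINC (long intergenic noncoding RNA) and a number. The 165 LINC genes described here were those above background on expression arrays of H9 cells, out of 841 LINC genes with a probe set that the platform annotation ties to 1 gene symbol (19.6%). A gene was taken when its value lay above the median of all noncontrol probe sets of the array on at least 2 of 8 arrays, and where it had several probe sets the one with the highest mean level was chosen first. The members were thus chosen by measured levels over all 8 arrays, whatever the group. The same filter let through 13807 of all 19775 genes (69.8%), which were the genes tested.

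H9 is an established human embryonic stem cell line. The study followed it toward blood with 2 arrays in each of 4 groups, undifferentiated unsorted H9 cells at day 0 and cells sorted as positive for KDR and CD31 at day 4, day 6 and day 8 of differentiation. Undifferentiated cells were kept on mouse embryonic fibroblast feeders, and differentiation used a serum-free medium based on StemPro34 with BMP-4 among its additions. All groups share 1 cell line with no genetic change named in the labels. Sorting and differentiation changed together between day 0 and the later days, so their parts in any difference cannot be told apart. The labels call the arrays of a group biological replicates without naming separate cultures, so p-values measure only the spread between these arrays. In such bulk samples fewer cells of a type and less RNA per cell cannot be told apart.

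Genes receive a LINC name when their RNA starts between protein-coding genes, has no long reading frame and has no established function to name it after. As a class such RNAs are known for low levels and for restriction to few cell types. Some act on the gene next door, others act in the cytoplasm, and a few have since been reported to encode small proteins.

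Levels are given as log2(intensity + 32), and folds are taken on that scale, which understates the change of dim genes. Array medians lay close together, between 88.7 and 93.2 intensity units, or 6.94 on the level scale as a mean over arrays. Sums of endothelial and pluripotency markers followed the labels. The 8 endothelial genes summed to between 21469 and 36108 units on the sorted arrays, against 930 and 958 at day 0, and 7 pluripotency genes summed to between 5932 and 10019 units on the sorted arrays, against 53904 and 56503 at day 0. Stromal and smooth muscle genes (6) summed to between 6210 and 16166 units on the sorted arrays, against 24176 and 24542 at day 0. Among them COL3A1 went the other way at day 4, with levels of 13.50 and 12.89 against 12.38 and 12.21 at day 0. It lay between 12.02 and 12.91 on day 6 and day 8. The 5 erythroid genes summed to between 814 and 10924 units, against 293 and 333. Leukocyte genes (4) summed to between 642 and 1102 units, against 806 and 809. The first replicates of day 4 and of day 6 differed from their partners, with lower sums over 8 yolk sac and visceral endoderm genes. In order of replicate these sums were 1525 and 1535 units at day 0, 3735 and 26966 units on day 4, 868 and 7665 units on day 6, and 14070 and 10936 units on day 8. Of those genes AFP lay above the median on all 8 arrays and FOXA2 on 0 of 8. Ratios of 3' to 5' GAPDH probe sets, a sign of RNA integrity, were 2.15 to 3.73 on the sorted arrays and 1.71 and 1.91 at day 0. The same ratio for ACTB was 8.92 and 10.4 before differentiation (day 0), 19.0 and 9.18 on day 4, 31.0 and 16.0 on day 6, and 9.91 and 15.1 on day 8, so the first replicates of day 4 and day 6 had the highest values. The part of RNA integrity and of these other cell types in the differences given here was not tested.

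Most members were dim. The median of their mean levels was 7.26, against 8.87 over all tested genes, and 100 of 165 lay within 0.5 of the array median. On all 8 arrays 94 members were above the median, while 19 passed with exactly 2 arrays. Just inside the filter stood LINC01703 and LINC01881, whose second-highest arrays were 0.0039 and 0.0042 above the median, and just outside stood LINC02012 and LINC00705 at -0.0069 and -0.0085. For 133 members the 8 arrays spanned less than 1 log2 unit. The 5 brightest probe sets belonged to LINC00621, LINC00623, LINC01000, LINC00674 and LINC00294, with mean levels of 10.23, 9.82, 9.48, 9.38 and 9.32. The first 3 are of the _x_at kind, whose probes also match other transcripts, so their values are uncertain, and 10 members in all rest on such probe sets.

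At day 4, 22 of 165 members passed limma's test at a Benjamini-Hochberg adjusted p of 0.05 over all 13807 genes (13.3%), against 18.2% of all genes tested. They were 8 rises and 14 falls, where 8.49% of all genes rose and 9.68% fell. At day 6, 25 members passed (15.2%), against 23.2% of all genes, with 10 rises and 15 falls beside 9.76% and 13.4% of all genes. At day 8, again 25 members passed (15.2%), against 24% of all genes, with 9 rises and 16 falls beside 10.3% and 13.8% of all genes. The member share lay below the background share in each comparison. The median change of all members was 0.09, 0.03 and 0.07 at day 4, day 6 and day 8, against 0.02, -0.03 and -0.03 over all genes. Calls of at least 2-fold were made for 15, 18 and 19 members (9.09%, 10.9% and 11.5%), against 12.2%, 14.4% and 15.3% of all genes.

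These 3 comparisons share the day 0 arrays, so their calls are not independent of each other. Together they called 27 members (16.4%), against 29.1% of all genes called in at least 1 of them. Of these members 16 were lower and 11 higher in sorted cells, and 138 members passed in none. Of the 16 that fell, 5 were above the array median on day 0 arrays alone (LINC00545, LINC00698, LINC00664, LINC01844 and LINC01503), and of the 11 that rose, 6 were above it on no day 0 array. Genes that enter through the group where they are high had to differ by the way they were chosen, so these counts are a description. Differences of these 11 members are given below as descriptions with no test, with their range over the alternatives run, since levels under the array median depend on the offset. The counts also leaned on the day 0 pair. Without day 0 replicate 1 or without day 0 replicate 2, 10 members passed at day 4 and 13 at day 6, and 14 passed at day 4 without day 4 replicate 2, in fits where a lone array takes the spread of the remaining groups. Of 72 calls of members 33 were lost in at least 1 of the fits without a day 0 array. Among the called members above the median on both day 0 and sorted arrays, LINC00173, LINC00665, LINC01224 and LINC01896 kept all their calls, each a fall, in every alternative run. More members passed with replicate 1 of day 4 and of day 6 both left out. Shares of all genes are not given for the fits with arrays left out, so their counts describe the fits and not LINC genes.

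**Figure D1:**
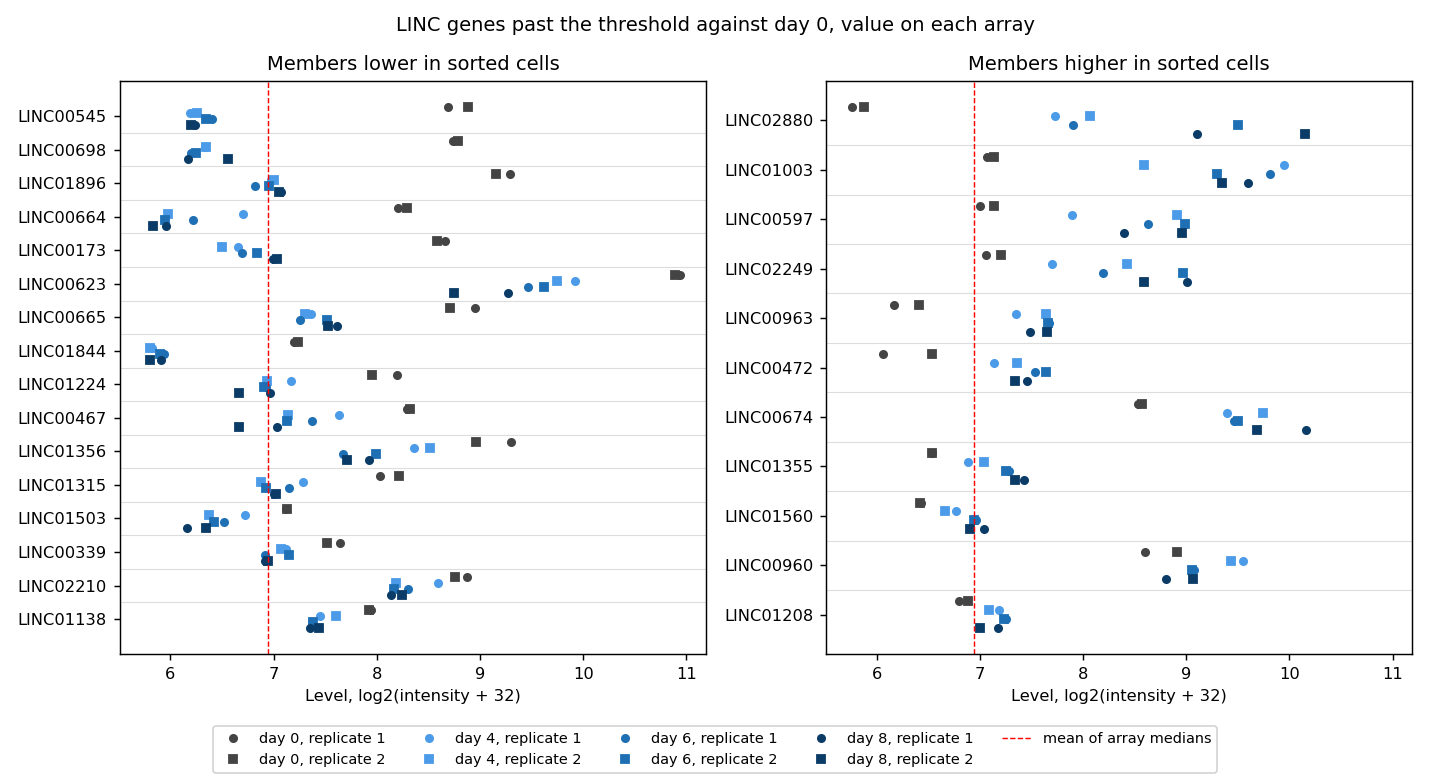
Levels of the 27 LINC genes that passed the test against day 0, as log2(intensity + 32) on each of the 8 arrays, with lower genes on the left, higher genes on the right and the mean array median of 6.94 as a dashed line. The 2 day 0 arrays lie within 0.5 of each other for every gene shown, while the sorted arrays of LINC02880 spread from 7.73 to 10.15.

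The deepest falls had levels near or under the background in sorted cells. LINC00545 stood at 8.69 and 8.88 before differentiation (day 0), 6.19 and 6.26 on day 4, 6.41 and 6.34 on day 6, and 6.24 and 6.20 on day 8. All 6 sorted arrays were under their medians and lay far from both day 0 arrays. Its log2 difference from day 0 was -2.57 at day 4, -2.41 at day 6 and -2.57 at day 8, with a range at day 4 from -3.23 to -1.66.

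A like pattern held for LINC00698, at 8.73 and 8.78 before differentiation (day 0), 6.33 and 6.34 on day 4, 6.20 and 6.25 on day 6, and 6.17 and 6.56 on day 8. Here too the 6 sorted arrays were below the median, and both arrays of day 4, like both of day 0, lay close to each other. Its log2 difference was -2.42 at day 4, -2.53 at day 6 and -2.39 at day 8, with a range at day 4 from -3.01 to -1.58. LINC01896 measured 9.29 and 9.15 before differentiation (day 0), 6.97 and 7.0 on day 4, 6.82 and 6.96 on day 6, and 7.07 and 7.05 on day 8. Its sorted arrays lay at about the array median, and it fell by 2.23 ± 0.12 at day 4 (SE, limma, 4.71-fold, adjusted p = 4.21e-05), with changes of -2.33 at day 6 and -2.16 at day 8. Another probe set of LINC01896, below the median on every array, changed by -0.018, -0.004 and -0.122 at day 4, day 6 and day 8.

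LINC00664 had levels of 8.20 and 8.29 before differentiation (day 0), 6.70 and 5.97 on day 4, 6.21 and 5.95 on day 6, and 5.96 and 5.83 on day 8. The 2 day 4 arrays were further apart than those of the other days. The log2 difference was -1.91 at day 4, -2.17 at day 6 and -2.35 at day 8, with a range at day 4 from -2.50 to -0.88. Other probe sets of LINC00664, below the median on every array, differed by -0.54 and -0.19 at day 4 and by -0.48 and -0.18 at day 8. LINC00173, an RNA that has been linked to granulocyte maturation, was at 8.66 and 8.59 before differentiation (day 0), 6.66 and 6.50 on day 4, 6.69 and 6.84 on day 6, and 6.99 and 7.03 on day 8. Day 8 lay highest among its sorted arrays, with no overlap with day 4 or day 6, and its fall was 4.12-fold at day 4 and 3.05-fold at day 8 (limma, adjusted p = 5.48e-05 and 0.00016). Another probe set of LINC00173, below the median on every array, changed by -0.11, -0.21 and -0.08 at day 4, day 6 and day 8. LINC01844 was at 7.20 and 7.24 at day 0 and between 5.80 and 5.94 on the 6 sorted arrays, a log2 difference of -1.41 at day 4 and -1.36 at day 8, with a range at day 4 from -2.23 to -0.69.

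LINC00665 and LINC00623 fell but stayed above background on every sorted array. LINC00665, which has been reported to encode the small protein CIP2A-BP, was at 8.95 and 8.71 before differentiation (day 0), 7.36 and 7.30 on day 4, 7.25 and 7.52 on day 6, and 7.62 and 7.53 on day 8. All sorted arrays were well under both day 0 arrays, and the fall was 2.83-fold at day 4 (limma, adjusted p = 0.000846) and 2.39-fold at day 8 (adjusted p = 0.00165). Another probe set, above the median on 2 arrays, changed by -1.29, -1.15 and -1.11 against day 0, not tested on its own, and 2 more were below the median on every array. LINC00623 read 10.93 and 10.89 before differentiation (day 0), 9.93 and 9.74 on day 4, 9.47 and 9.62 on day 6, and 9.27 and 8.74 on day 8. Its 2 arrays at each later day lay below those of the day before, but no step between sorted days passed the test, and the probe set is of the _x_at kind and so uncertain. LINC00467, reported to encode a peptide associated with mitochondrial ATP synthase, was at 8.29 and 8.32 before differentiation (day 0), 7.63 and 7.14 on day 4, 7.37 and 7.13 on day 6, and 7.03 and 6.66 on day 8. Of its sorted arrays, day 8 replicate 2, lay below the median. Its fall was 1.89-fold at day 4 and 2.75-fold at day 8 (limma, adjusted p = 0.0228 and 0.00319), but a second probe set, above the median on 1 array, changed by 0.34 at day 4, and all 3 calls were lost when probe sets were averaged.

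LINC01224 and LINC01315 fell 2.03-fold and 2.06-fold at day 4, with levels of 7.95 to 8.22 on the day 0 arrays and 6.67 to 7.29 on the sorted arrays. LINC01356 was at 9.30 and 8.96 before differentiation (day 0), 8.36 and 8.51 on day 4, 7.67 and 7.99 on day 6, and 7.92 and 7.72 on day 8. The day 4 arrays lay between day 0 and the later days, and the call at day 4 was marginal (limma, adjusted p = 0.0499, from 0.0355 to 0.315 over 21 alternatives), while the falls of 2.46-fold at day 6 and 2.49-fold at day 8 passed in every alternative run (adjusted p = 0.004 and 0.00379). Smaller falls were found for LINC01503, an RNA described at a super-enhancer in squamous carcinoma, and for LINC00339, which lies beside CDC42. LINC00339 fell 1.40-fold at day 4 and 1.57-fold at day 8, and the log2 difference of LINC01503 was -0.58 and -0.87. The day 4 call of LINC00339 was lost in 7 of 20 alternatives. LINC01138 passed at day 6 and day 8 alone (changes of -0.41, -0.56 and -0.54 at day 4, day 6 and day 8), and LINC02210 at day 8 alone (-0.43, -0.58 and -0.62). The 3 other probe sets of LINC02210 changed by -0.06, -0.54 and 0.02 at day 8, the last one below the median on every array. Its day 8 call was lost in 7 of 21 alternatives. For LINC01138 other probe sets, below the median on every array, changed by 0.11 and 0.02 at day 8.

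Of the 165 members 125 had an entry in the RefSeq promoter table (GRCh38.p14, 250 bases before to 50 after the start), 23 of the 27 called ones among them. Those of the 4 deepest falls in the table are printed so that their differing base composition can be read beside their levels. The windows are chr13:30882312-30882611 on the plus strand for LINC00545, chr18:78979642-78979941 on the minus strand for LINC01896, chr19:21483465-21483764 on the plus strand for LINC00664 and chr12:116533172-116533471 on the plus strand for LINC00173. Capitals mark matches, on either strand, to the octamer ATGCAAAT, the GATA motif AGATAA, the ETS motif AGGAAG or the TATA motif TATAAA, and the sequences run 5' to 3' on the strand of the gene.
LINC00545: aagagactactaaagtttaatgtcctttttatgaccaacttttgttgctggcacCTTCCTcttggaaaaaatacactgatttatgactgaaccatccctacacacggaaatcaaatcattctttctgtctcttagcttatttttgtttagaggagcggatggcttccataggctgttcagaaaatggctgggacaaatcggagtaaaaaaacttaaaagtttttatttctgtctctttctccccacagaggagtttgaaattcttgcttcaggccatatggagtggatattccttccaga
LINC01896: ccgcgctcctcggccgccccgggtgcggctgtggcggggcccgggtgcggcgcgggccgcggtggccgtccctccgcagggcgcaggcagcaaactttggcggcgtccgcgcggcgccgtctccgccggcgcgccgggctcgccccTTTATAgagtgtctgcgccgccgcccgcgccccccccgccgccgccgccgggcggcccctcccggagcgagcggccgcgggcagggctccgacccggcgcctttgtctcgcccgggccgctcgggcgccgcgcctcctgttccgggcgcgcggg
LINC00664: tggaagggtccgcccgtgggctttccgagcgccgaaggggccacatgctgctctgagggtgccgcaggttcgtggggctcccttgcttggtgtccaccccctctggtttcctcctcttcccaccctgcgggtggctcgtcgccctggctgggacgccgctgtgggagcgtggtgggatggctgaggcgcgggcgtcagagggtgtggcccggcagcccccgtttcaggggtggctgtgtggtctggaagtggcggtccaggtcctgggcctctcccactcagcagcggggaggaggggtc
LINC00173: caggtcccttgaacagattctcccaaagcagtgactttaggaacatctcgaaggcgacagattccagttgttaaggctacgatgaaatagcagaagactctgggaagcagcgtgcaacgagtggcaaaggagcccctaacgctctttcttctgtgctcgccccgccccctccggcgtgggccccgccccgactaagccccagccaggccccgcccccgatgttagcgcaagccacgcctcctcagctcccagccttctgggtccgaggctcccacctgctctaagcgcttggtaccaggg

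GC content was 38.3% for LINC00545, 84.0% for LINC01896, 70.3% for LINC00664 and 61.0% for LINC00173, so base composition differed widely among these falls. The LINC01896 window held 59 CG pairs, a density typical of CpG islands, and that of LINC00545 held 3. None of the 4 held the octamer, the site of the pluripotency factor OCT4 and its relatives. Among all 27305 RefSeq promoters of this length 1.8% hold it, and among the 125 member promoters 1.6%. A missing match says only that these letters are not in the window.

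The rises included genes whose sorted replicates lay far apart. LINC02880 was at 5.76 and 5.88 before differentiation (day 0), 7.73 and 8.06 on day 4, 7.90 and 9.51 on day 6, and 9.11 and 10.15 on day 8. It was below background on both day 0 arrays and above it on all 6 sorted arrays, with replicate 2 higher than replicate 1 on each sorted day. Its log2 difference from day 0 was 2.07 at day 4, 2.88 at day 6 and 3.81 at day 8. Over the alternatives it ran from 1.13 to 3.02 at day 4, from 1.78 to 3.90 at day 6 and from 2.55 to 4.89 at day 8.

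LINC01003 stood at 7.07 and 7.14 before differentiation (day 0), 9.95 and 8.59 on day 4, 9.81 and 9.30 on day 6, and 9.60 and 9.35 on day 8. In this gene replicate 1 was the higher array on each sorted day, and every sorted array exceeded both day 0 arrays by more than 1 unit. The rise was 4.48-fold at day 4, 5.45-fold at day 6 and 5.17-fold at day 8 (limma, adjusted p = 0.0141, 0.00759 and 0.00849), and each call was lost without day 0 replicate 1 or without day 0 replicate 2 (adjusted p up to 0.0967). LINC00597 was at 7.0 and 7.14 before differentiation (day 0), 7.89 and 8.91 on day 4, 8.63 and 8.99 on day 6, and 8.40 and 8.96 on day 8, and rose 2.52-fold, 3.34-fold and 3.05-fold on these days. Its body overlaps PEAK1, a pseudokinase gene, so signal of the 2 transcripts may not be told apart, and its day 4 call (limma, adjusted p = 0.0433) was lost in 9 of 21 alternatives.

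LINC02249 measured 7.06 and 7.21 before differentiation (day 0), 7.70 and 8.42 on day 4, 8.19 and 8.97 on day 6, and 9.0 and 8.59 on day 8. It passed at day 6 and day 8 (2.73-fold and 3.17-fold, limma, adjusted p = 0.0234 and 0.0135), with a value of 0.93 ± 0.34 (SE) and adjusted p = 0.111 at day 4. Its 2 other probe sets changed by 0.37 and 1.92 at day 8. LINC00963, also called MetaLnc9 and studied in prostate and lung cancer, was at 6.17 and 6.40 before differentiation (day 0), 7.35 and 7.64 on day 4, 7.67 and 7.66 on day 6, and 7.49 and 7.65 on day 8. Its log2 difference was 1.21 at day 4, 1.38 at day 6 and 1.28 at day 8, with a range at day 4 from 0.67 to 1.68, and the probe set is of the _x_at kind and thus uncertain. A second probe set of the gene, above the median on 1 array, changed by 0.81, 0.57 and 0.62.

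LINC00472, a p53-responsive RNA with described tumour-suppressor activity, had levels of 6.06 and 6.53 before differentiation (day 0), 7.14 and 7.36 on day 4, 7.53 and 7.64 on day 6, and 7.46 and 7.34 on day 8. Day 0 lay below the array median and all sorted arrays above it. The log2 difference was 0.95 at day 4, 1.29 at day 6 and 1.10 at day 8, with a range at day 4 from 0.50 to 1.36. Another probe set of LINC00472, below the median on every array, differed by 0.14, 0.27 and 0.23. LINC00674 was bright on all arrays, at 8.53 and 8.57 before differentiation (day 0), 9.40 and 9.75 on day 4, 9.46 and 9.50 on day 6, and 10.16 and 9.69 on day 8. It rose 2.03-fold at day 4, 1.90-fold at day 6 and 2.59-fold at day 8 (limma, adjusted p = 0.0199, 0.0247 and 0.00533). Each call was lost without day 0 replicate 1 or without day 0 replicate 2. Another probe set above the median on all arrays changed by 1.02, 1.17 and 1.33, with 2 more below it on every array. LINC01355 differed from day 0 by 0.43, 0.73 and 0.85 (log2) at day 4, day 6 and day 8, and its day 8 arrays, at 7.43 and 7.34, lay above both day 4 arrays, at 6.88 and 7.04. The 3 remaining rises were small. LINC01560 and LINC01208 were above the median on no day 0 array and are given as descriptions. The log2 difference of LINC01560 was 0.53 at day 6 and 0.55 at day 8, with a range at day 6 from 0.27 to 0.76. That of LINC01208 was 0.41 at day 6, with a range from 0.24 to 0.53. LINC00960 passed at day 4 alone, where its levels of 9.55 and 9.43 stood above 8.60 and 8.91 at day 0 (1.66-fold, limma, adjusted p = 0.0367). That call was lost in 8 of 21 alternatives.

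The promoters of the 4 steepest rises are printed for the same reading, from the same RefSeq table. They are chr6:113904137-113904436 on the plus strand for LINC02880, chr7:152463874-152464173 on the plus strand for LINC01003, chr15:77225355-77225654 on the minus strand for LINC00597 and chr15:30195786-30196085 on the plus strand for LINC02249.
LINC02880: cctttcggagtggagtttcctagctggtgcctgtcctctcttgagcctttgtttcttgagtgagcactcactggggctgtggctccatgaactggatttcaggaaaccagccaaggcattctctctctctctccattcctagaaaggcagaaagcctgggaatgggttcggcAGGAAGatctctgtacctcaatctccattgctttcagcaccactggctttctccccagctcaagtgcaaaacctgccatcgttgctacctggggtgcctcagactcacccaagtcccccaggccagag
LINC01003: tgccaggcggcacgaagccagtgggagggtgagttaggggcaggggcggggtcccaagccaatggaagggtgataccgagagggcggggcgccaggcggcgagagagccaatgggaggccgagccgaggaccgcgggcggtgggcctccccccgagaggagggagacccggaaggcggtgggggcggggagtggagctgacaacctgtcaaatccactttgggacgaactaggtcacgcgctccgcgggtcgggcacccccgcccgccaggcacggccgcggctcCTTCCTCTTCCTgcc
LINC00597: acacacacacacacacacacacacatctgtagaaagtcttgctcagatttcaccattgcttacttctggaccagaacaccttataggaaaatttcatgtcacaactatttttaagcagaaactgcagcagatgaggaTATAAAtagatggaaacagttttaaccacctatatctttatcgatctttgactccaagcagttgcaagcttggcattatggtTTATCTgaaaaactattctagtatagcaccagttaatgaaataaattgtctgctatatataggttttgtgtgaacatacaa
LINC02249: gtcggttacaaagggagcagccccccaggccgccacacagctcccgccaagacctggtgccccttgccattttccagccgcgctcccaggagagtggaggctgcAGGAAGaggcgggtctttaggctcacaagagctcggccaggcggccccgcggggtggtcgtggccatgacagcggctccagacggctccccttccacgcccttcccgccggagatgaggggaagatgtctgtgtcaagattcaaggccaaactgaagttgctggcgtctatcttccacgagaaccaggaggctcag

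ETS factors and GATA factors are regulators of endothelial and blood genes. The ETS letters were found in the windows of LINC02880, LINC01003 and LINC02249, and also in that of LINC00545, which fell. Among all promoters 33.7% hold these letters, and among member promoters 49 of 125 (39.2%). The GATA letters were found in the LINC00597 window, with a share of 10.5% among all promoters and 8.8% among member promoters, and the TATA letters in those of LINC00597 and LINC01896, with 12% in both sets. Over the 125 member promoters the median GC content was 55.67%, against 58.33% over all promoters, with a median of 8 CG pairs against 14. Median GC was 63.33% for the 10 called rises and 55.33% for the 13 called falls in the table, which no test was run on.

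**Figure D2:**
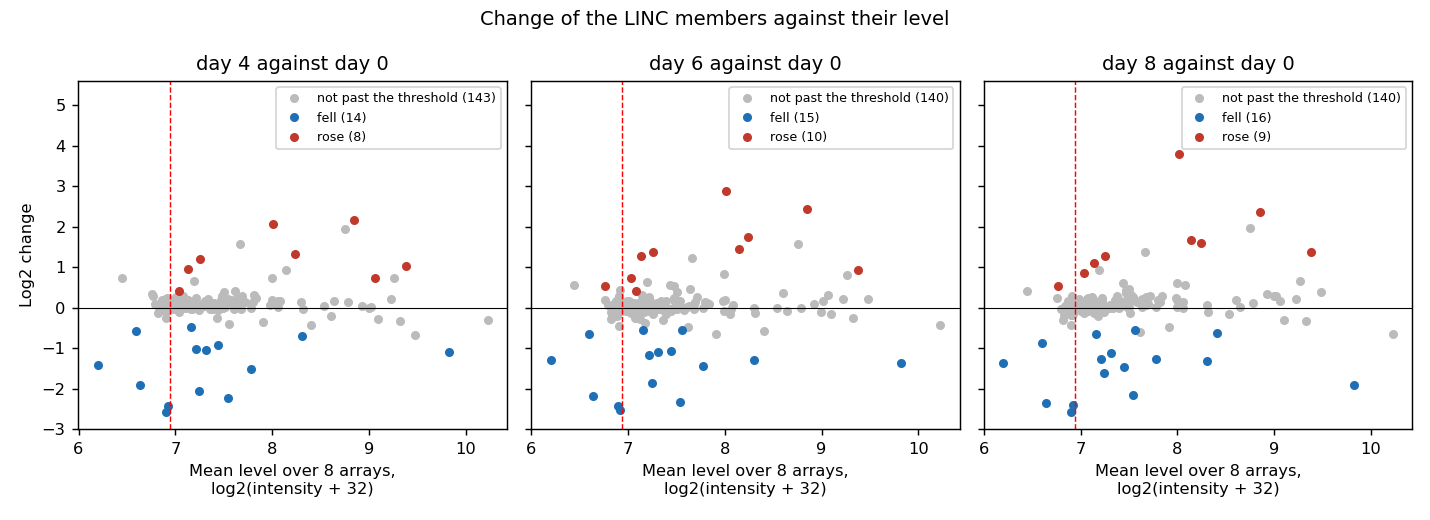
Log2 change against day 0 of the 165 LINC genes (vertical axis) plotted against their mean level over 8 arrays as log2(intensity + 32) (horizontal axis), in 1 panel for each of day 4, day 6 and day 8, with genes past the threshold coloured and the mean array median as a dashed line. Most genes sit near 0, and both dim and bright genes are among those called.

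Dim and bright members were called in like shares, and so were dim and bright genes at large. Of the 83 dimmer members 13.3%, 15.7% and 14.5% were called at day 4, day 6 and day 8, against 20.2%, 22.9% and 23.1% of 2038 genes as dim. Of the 82 brighter members 13.4%, 14.6% and 15.9% were called, against 17.8%, 23.2% and 24.2% of 11769 genes as bright. Among dim genes falls outnumbered rises at day 4, with 3 rises and 8 falls among members and 57 and 355 among all genes. Over all genes as dim there were 70 rises and 397 falls at day 6, and 86 and 384 at day 8. The mean level is taken over more sorted than day 0 arrays, so a gene high on day 0 alone has a low mean. Falls were thus favoured among dim genes by the way they were split, and these counts are a description.

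Nearest neighbours of the called members were looked up in the RefSeq gene table and taken from the genes tested here. Some pairs moved in the same direction. LINC01896 lies beside SALL3, a zinc-finger factor gene, which was at 10.58 and 10.19 before differentiation (day 0), 8.01 and 8.25 on day 4, 8.04 and 7.70 on day 6, and 8.35 and 7.92 on day 8. SALL3 fell by 2.25 ± 0.24 at day 4 (SE, limma, adjusted p = 0.00105), where LINC01896 fell by 2.23, and no sorted array of either gene reached its day 0 arrays. CADPS, a gene of regulated secretion beside LINC00698, differed from day 0 by -1.36, -1.59 and -1.51 at day 4, day 6 and day 8. TRAF5, a TNF-receptor adaptor gene beside LINC00467, changed by -1.13, -1.09 and -1.27 (limma, adjusted p at most 0.00578). MEDAG, an adipogenesis gene beside LINC00545, differed by -0.87, -0.85 and -0.84. CADPS and MEDAG were above the array median on day 0 arrays alone, so their differences are given with no test. SALL3, CADPS, TRAF5 and MEDAG were the 4 falling neighbours of the 14, 15 and 16 falling members on the 3 days. Beside them, 9.68%, 13.4% and 13.8% of all genes fell, and the count is a description, since CADPS and MEDAG had to differ by the way genes were chosen.

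Of the 8 members that rose at day 4 none had a called neighbour. At day 6 and day 8 TJP1, which encodes the tight junction scaffold ZO-1, was the single called neighbour of the 10 and 9 rising members. It rose by 1.04 at day 6 and 1.07 at day 8 beside LINC02249. Of all genes 8.49%, 9.76% and 10.3% rose on the 3 days, so these few pairs lay near the background share. Beside the steepest rises, changes at day 8 were -0.35 for the deacetylase gene HDAC2, next to LINC02880, and -0.44 for the methyltransferase gene KMT2C, next to LINC01003. Neither passed the threshold. The gene nearest to LINC01503 was another member, LINC00963, and LINC01503 fell while LINC00963 rose. LINC00339 fell on all 3 days while CDC42, a small GTPase gene, changed by 0.71, 0.99 and 0.25 and passed at day 6 alone (limma, adjusted p = 0.0206). PEAK1 changed by 1.16, 1.25 and 1.49 beside LINC00597 and did not pass.

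**Figure D3:**
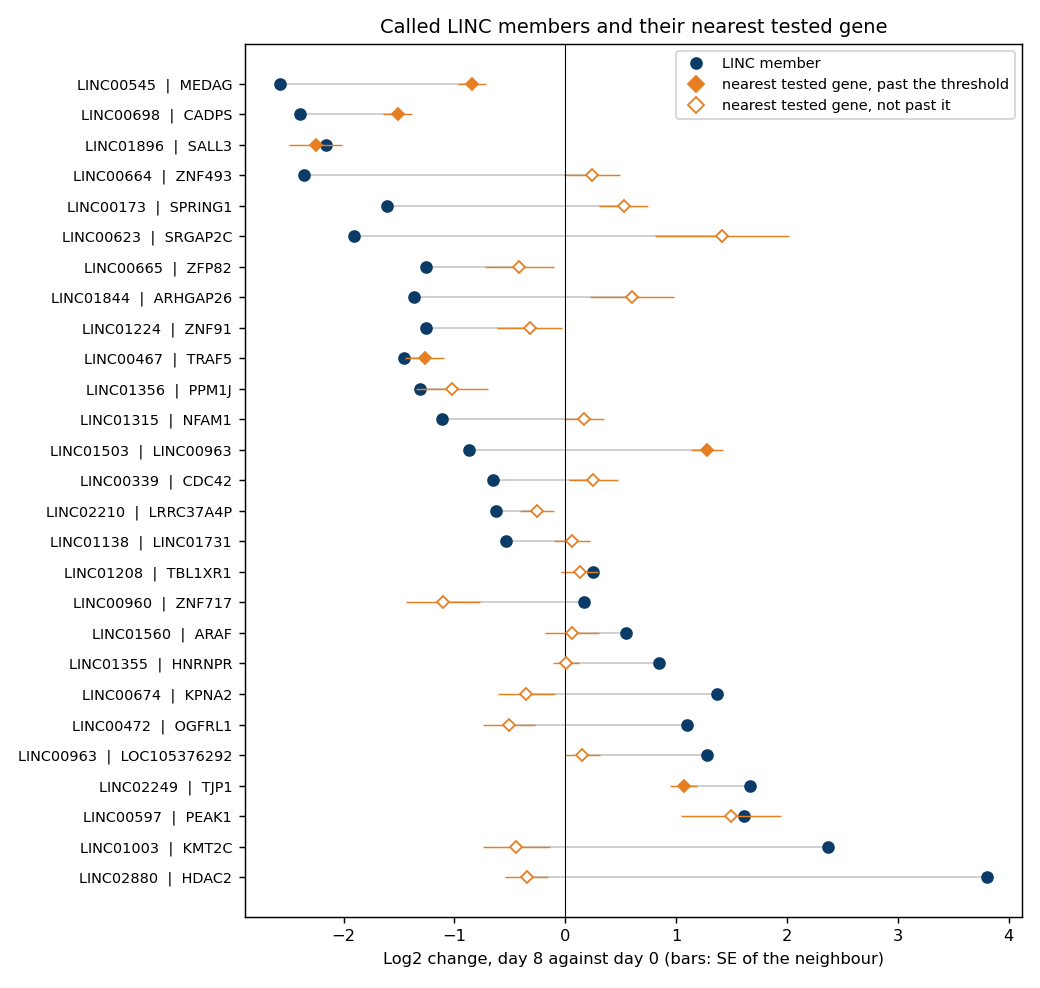
Log2 change at day 8 against day 0 of the 27 called LINC genes (circles) and of the nearest gene tested (diamonds, filled where past the threshold, bars giving the SE of the neighbour), 1 pair to a row. SALL3, TRAF5, CADPS and MEDAG lie to the left of 0 with their LINC genes, while HDAC2 and KMT2C lie near 0 against changes of 3.81 and 2.37.

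Between sorted days 0 of 165 members passed limma's test at an adjusted p of 0.05 in each of day 6 against day 4, day 8 against day 6 and day 8 against day 4, where 0% of all 13807 genes passed. At an unadjusted p under 0.05 there were 9, 4 and 9 members (5.45%, 2.42% and 5.45%), against 5.18%, 2.5% and 6.37% of all genes. LINC01355 had the smallest p at day 8 against day 4, a difference of 0.42 ± 0.10 (SE, limma, adjusted p = 0.732), followed by LINC00173 with 0.43 ± 0.11. At day 6 against day 4 these were LINC01193 with -0.40 and LINC01356 with -0.61 (adjusted p = 0.912 and 0.92), and at day 8 against day 6 LINC01193 with 0.33 and LINC02987 with 0.30 (adjusted p = 0.954 for both). Differences over 2-fold between day 8 and day 4 were seen in 3 members (1.82%), against 1.59% of all genes. They were 1.73 for LINC02880, 1.08 for LINC01000 and -1.01 for LINC00261 (limma, adjusted p from 0.732 to 0.736).

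In several members the 2 arrays of day 4 or day 6 lay further apart than the mean of that day from day 0. LINC02381 was at 7.41 and 7.34 before differentiation (day 0), 10.56 and 8.09 on day 4, 9.35 and 8.58 on day 6, and 9.49 and 9.20 on day 8. Every sorted array exceeded day 0, yet the difference of 1.95 ± 0.72 at day 4 did not pass (SE, limma, adjusted p = 0.116), nor did 1.97 at day 8 (adjusted p = 0.0909). The fit shares 1 spread over the 4 groups, so the day 4 arrays of LINC02381 widen its SE at day 8 too. LINC00342 had 6.89 and 9.22 at day 4 around day 0 levels of 7.90 and 7.86, so its arrays overlapped day 0 on both sides. LINC00648 had 7.20 and 9.21 at day 4 and 6.85 and 8.83 at day 6, against 6.64 and 6.60 at day 0, with replicate 2 the high array on both days. LINC00965 likewise had 6.65 and 7.96 at day 4 and 6.41 and 8.12 at day 6, against 6.64 and 6.63 at day 0. LINC00261, which lies next to the endoderm factor gene FOXA2, had 7.63 and 8.77 at day 4, against 7.71 and 7.84 at day 0. On day 6 it had 7.35 and 7.24 and on day 8 7.39 and 6.99.

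Over days 0, 4, 6 and 8 in turn, 0, 10, 6 and 1 members lay more than 2-fold apart between the arrays of a day (0%, 6.06%, 3.64% and 0.606%), beside 0.00724%, 6.79%, 9.18% and 1.55% of all genes. The 1 member at day 8 was LINC02880. Correlation across the 165 members between the arrays of a day, given as a description, was 0.984, 0.792, 0.870 and 0.962 in the same order of days. The difference between replicate 2 and replicate 1 of a member at day 4 ran with that at day 6 (r = 0.628 across members, 0.594 across all genes, a description with no test). Across members the same r was 0.476 for day 6 and day 8 and 0.238 for day 4 and day 8. The main tests between sorted days took no account of this shared deviation.

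**Figure D4:**
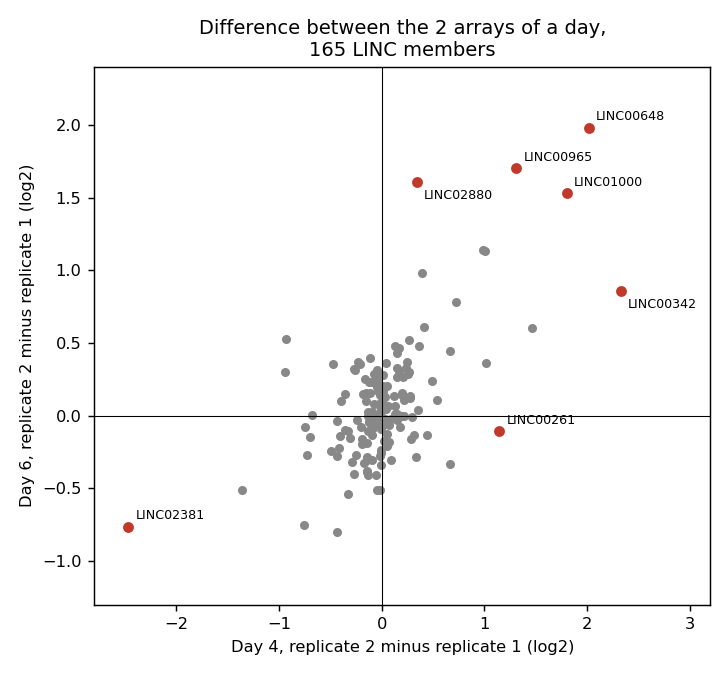
Difference in level between replicate 2 and replicate 1 (log2) at day 6 (vertical axis) against the same difference at day 4 (horizontal axis), 1 point for each of the 165 LINC genes, with 7 genes named in red. LINC00648, LINC00965 and LINC01000 were higher on replicate 2 on both days, LINC02381 was lower on it on both days, and most genes sit near 0.

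LINC genes with a described place in these cells were looked at by name. LINC00520, known as LEENE and described as an enhancer RNA of endothelial nitric oxide synthase, was at 8.92 and 8.86 before differentiation (day 0), 8.67 and 9.16 on day 4, 8.95 and 9.19 on day 6, and 9.14 and 9.26 on day 8. The day 4 arrays lay on both sides of the day 0 arrays, and the difference of 0.30 ± 0.21 at day 8 did not pass (SE, limma, adjusted p = 0.335). LINC00458, an RNA described in pluripotent cells, missed the filter with 1 array above the median. It was at 6.81 and 7.05 before differentiation (day 0), 6.39 and 6.14 on day 4, 6.10 and 6.27 on day 6, and 6.08 and 6.26 on day 8, and in a fit without the filter fell by 0.76 at day 8 (limma, adjusted p = 0.00686). LINC00607 and LINC01013, both described in endothelial or vascular cells, were below the median on all 8 arrays.

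With no level filter, 30, 37 and 37 of all 841 LINC genes passed at day 4, day 6 and day 8 (3.57%, 4.4% and 4.4%), against 12.5%, 15.7% and 16.5% of all 19775 genes. Of the 676 LINC genes outside the filter 6 rose and 4 fell at day 4, 5 rose and 7 fell at day 6, and 5 rose and 8 fell at day 8. None of these called changes exceeded 0.68, 0.75 and 0.76 in size on the 3 days. In the same fit 5.52%, 6.23% and 6.74% of all genes rose and 7.02%, 9.5% and 9.75% fell. Of all genes 69.8% were past the filter, against 19.6% of LINC genes, so these comparisons with all genes are not at like levels. The share called among all genes outside the filter is not given here.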

How the data were processed

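Gene expression was measured on 8 Affymetrix arrays of H9 cells, 2 per group, from Trizol-extracted total RNA labelled as biotinylated cRNA, per the labels' protocols. Group and replicate were read from each title. The source name of 3 later samples reads day 4 where their title, description and stage give day 6 or day 8, and the titles were followed.

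The authors deposited 1 linear intensity per probe set and array. The tool was MAS5, per the submitters' processing notes, with its version and scaling not given in the sources used here, and no detection calls were used. Intensities were turned into log2 values of the deposited intensity plus 32, with no further scaling. The number of arrays limits the precision.

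Of 54675 probe sets, the platform annotation gives 1 symbol for 41091, several for 1801 and none for 11721, and 62 are controls. All 165 members were found by gene ID in the RefSeq gene table of GRCh38.p14, and 0 symbols changed. LINC symbols on 47 probe sets with several symbols were not used, and LINC-ROR, LINC01108, LINC00678 and LINC00961 were not analysed here. The files name no genome build, so only promoter windows have coordinates.

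Testing used limma 3.58.1 (R 4.3.3), lmFit and eBayes with trend, 1 term per group over all 8 arrays, two-sided, with Benjamini-Hochberg adjustment over 13807 genes and calls at 0.05. It was tested on simulated data. Python 3.11.15 with matplotlib 3.10.9 drew the figures. Members and lists were chosen with earlier results of these data known. Named were all called members, the 5 brightest, those next to the filter, at day 4 and day 6 the 3 with the widest replicates, the 2 with the smallest p between sorted days, described pluripotent and endothelial LINC genes, and the nearest tested gene of each called member. LINC00261 lies outside this rule and was chosen after its values were seen. Alternatives varied the offset, level filter, normalization, probe set choice, variance model and arrays fitted.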

Additional observations from a re-analysis of the deposited data

How the results depend on the processing

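No change of a called member reversed in any alternative. Where probe sets were fitted singly only the chosen one was scored, so another one that moved the other way could not count. That of LINC00467 changed by 0.34 at day 4, against -0.92 for the chosen one. Member counts stayed within 1.5 times of those reported with a smaller and a larger offset, no level filter, quantile normalization and median centring. The same held for other probe set rules and eBayes without trend. A filter at the 75th percentile, which tests fewer genes, left 11, 12 and 12 members at day 4, day 6 and day 8 against day 0, beside the 22, 25 and 25 reported. Fitting only the arrays of the groups compared gave 42 at day 8, the 25 reported among them, and the cause was not tested. Leaving out replicate 1 of day 4 and of day 6 together gave 40 at day 6 and 42 at day 8, with all 25 reported calls kept in each. Leaving out single arrays gave 10 to 23 members at day 4, 13 to 31 at day 6 and 17 to 30 at day 8. The lowest counts came without a day 0 array, 10 without either at day 4, 13 without either at day 6, and 17 and 18 at day 8. Between sorted days the count was 0 in every alternative run. Shares of all genes are not given for the alternatives, the replicate block below included, so these member counts describe the fits and not LINC genes. Of 72 calls, 38 were kept in every alternative and 34 lost in at least 1. The kept calls include those of members above the median on day 0 arrays alone or on no day 0 array, such as LINC00545 and LINC00963. Such members had to differ by the way they were chosen, so for them a kept call is a description. Differences between replicate 2 and replicate 1 ran together across all genes among the sorted days (r = 0.594 for day 4 and day 6, 0.409 for day 6 and day 8, 0.200 for day 4 and day 8) but not with day 0 (r from -0.0356 to 0.0178). The 3 pairs with day 0 showed no shared deviation, so no pairing was assumed. The 3 pairs of sorted days did show it, so the unpaired fit may miss differences between sorted days. With the replicate block 22, 28 and 26 members passed against day 0 and 0 between sorted days. The block was fitted over all 8 arrays and was not run on the 6 sorted arrays alone. Dim probe sets near the array median limit what changes can be seen.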

Other observations

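Other noncoding genes named by their place relative to a coding gene were set beside the LINC genes. Of 257 antisense genes tested, 10.9% passed at day 4, 15.2% at day 6 and 13.2% at day 8 against day 0 (limma, Benjamini-Hochberg adjusted p of 0.05). Of 73 divergent transcripts, which start from a shared promoter in the opposite direction, 13.7%, 16.4% and 16.4% passed. Host genes of small nucleolar RNAs and miRNAs, which are spliced and often abundant, passed in 28.6%, 33.3% and 28.6% of 21 genes. LINC genes stood at 13.3%, 15.2% and 15.2%, and all genes at 18.2%, 23.2% and 24%. The median size of change against day 0 was 0.145, 0.138 and 0.172 for LINC genes and 0.318, 0.363 and 0.393 for all genes, and the difference between classes was not tested.

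RefSeq gives LINC01731 among the other names of LINC01138 but also holds LINC01731 as a gene of its own, as the platform annotation does. LINC01138 fell at day 6 and day 8 while LINC01731 did not pass.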
